A study of Caenorhabditis elegans with 6 samples.

Results

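The 10 biogenic amine receptor genes *dop-1*, *dop-2*, *dop-3*, *dop-4*, *ser-1*, *ser-2*, *ser-4*, *ser-7*, *octr-1* and *tyra-2* were taken by name from a neural RNA-seq table of 19793 *C. elegans* genes, and all 10 were found. The table held 6 libraries made from isolated neural cells of L1 animals that had hatched without food, 3 from *adr-2 (-)* animals (strain BB78) and 3 from *adr-2 (-)*;ADR-1 dsRBD1 animals (strain HAH57), each labelled as a biological replicate. Both strains lack ADR-2, the only A-to-I RNA editing enzyme of the worm, through the *ok735* allele, and both carry GFP and RFP reporters driven by the neural *rab-3* promoter with an *unc-119* rescue. The dsRBD1 strain in addition carries ADR-1 with lysine substitutions in its first dsRNA-binding domain, a mutant known not to bind RNA, and with a FLAG tag that the *adr-2 (-)* strain lacks, so effects of the tag and of the substitutions cannot be told apart. No wild-type library was part of the comparison, which asks whether loss of RNA binding by ADR-1 alters neural gene expression when *adr-2* is absent.

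Dopamine, serotonin, tyramine and octopamine act in the worm mainly through G protein-coupled receptors on neurons and muscles. These receptors set the speed of locomotion, pharyngeal pumping, egg laying and responses to food and threat. Each receptor couples to a G protein alpha subunit that either raises cAMP, acts through phospholipase C or inhibits the cell, and each is used by a limited set of cells. In a pool of neural cells the level of one receptor transcript therefore reflects both the number of such cells and the RNA in each, which cannot be told apart in bulk samples.

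The libraries held 5686686 to 18382009 reads on genes. The library of *adr-2 (-)* replicate 3 stood apart. It had the fewest reads, 52.6% of these fell on *rrn-3.1*, a ribosomal RNA gene, against 12.6% to 21.3% in the other 5 libraries, and reads fell on 10532 genes against 11971 to 15887. Here 1 read was worth 3.25 normalized units, compared with 0.602 to 0.930 elsewhere. The 14 pan-neuronal marker genes had reads in every library, and together took 0.393% to 0.422% of the reads outside *rrn* genes in *adr-2 (-)* cells and 0.374% to 0.465% in dsRBD1 mutant cells. Body wall muscle markers took 2.64% to 3.34% of these reads over the 6 libraries, so RNA of other tissues was present throughout. Residual reads on *adr-2* gave values of 85.6, 58.0 and 143 in *adr-2 (-)* replicates 1, 2 and 3 and of 1.86, 18.1 and 2.86 in the dsRBD1 mutant replicates. As both strains carry the same allele, *adr-2* does not check the labels. The gene that carries the dsRBD1 mutation was not analysed here.

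The values below are normalized read counts, which are the reads of a gene divided by a size factor of the library. A fold change is the difference of mean log2(value + 1), dsRBD1 mutant minus *adr-2 (-)*, from limma fitted to 13705 genes, those whose values averaged 10 or more, and adjusted p-values are by the Benjamini-Hochberg method over all of these. Values are listed for replicates 1, 2 and 3 in that order. All 10 receptor genes passed the filter, and none was called changed when an adjusted p under 0.05 was required together with a log2 fold change beyond 0.5 in either direction. The same rule called 0% of the 13705 genes, and 6.36% had an unadjusted p under 0.05.

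**Figure D1:**
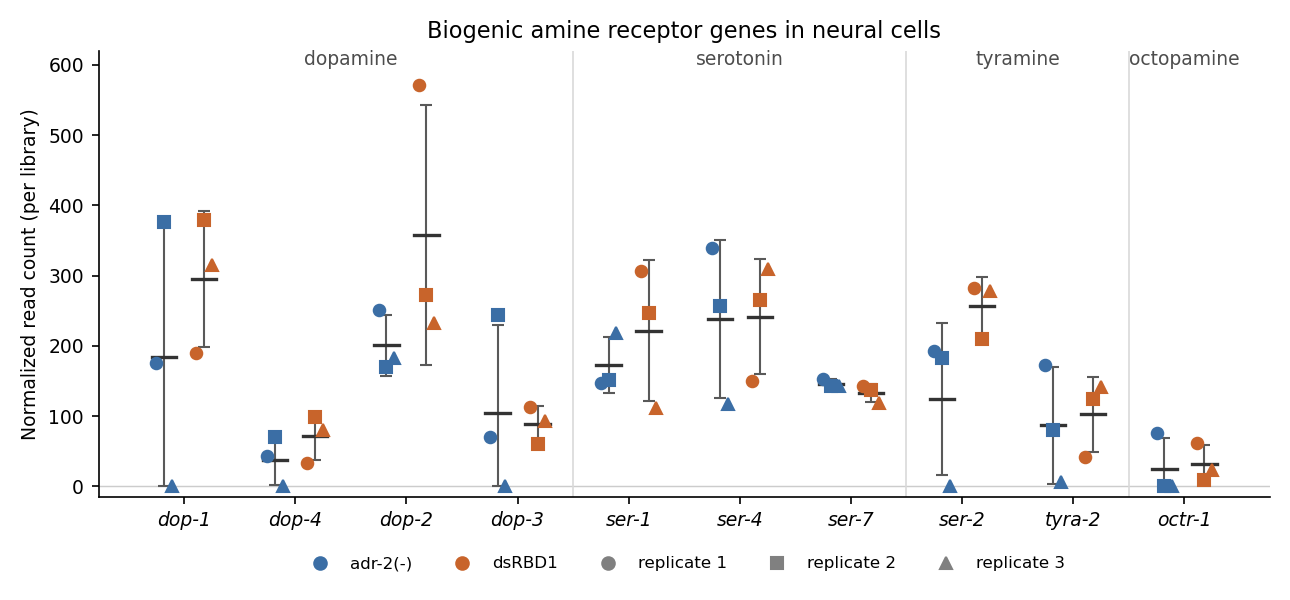
Normalized read count of each receptor gene (y axis) in the 3 *adr-2 (-)* libraries (blue) and the 3 dsRBD1 mutant libraries (orange), grouped by ligand. Symbols mark the replicate, horizontal bars the mean and whiskers the SD, drawn no lower than 0. The blue triangle, *adr-2 (-)* replicate 3, sits at 0 for 5 genes, whereas *ser-7* stays between 119 and 153 in every library.

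Among the dopamine receptors, *dop-1* (WBGene00001052, chromosome X, 4411301 to 4418851) encodes a D1-like receptor that acts in cholinergic motor neurons. Its values were 176, 376 and 0 in *adr-2 (-)* cells and 189.7, 379.8 and 315 in dsRBD1 mutant cells. Apart from the library without a read, the genotypes spanned nearly the same range. Its log2 fold change was 2.81 (SE 1.73, 95% interval -0.97 to 6.59, limma adjusted p = 0.741), and without *adr-2 (-)* replicate 3 it was 0.14 (SE 0.48). In that library the mean *dop-1* value of the other 5 would have stood for 88.3 reads, and 0 were found.

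The other D1-like receptor, encoded by *dop-4* (WBGene00016872, chromosome X, 1295253 to 1298830), belongs to a receptor type known from invertebrates. It had values of 43.3, 70.5 and 0 in *adr-2 (-)* cells and 33.5, 98.7 and 80.9 in dsRBD1 mutant cells. The lowest mutant library lay below 2 of the *adr-2 (-)* libraries, so the genotypes overlapped. A log2 fold change of 2.16 (SE 1.85, limma adjusted p = 0.762) became 0.22 (SE 0.80) without *adr-2 (-)* replicate 3.

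Of the D2-like receptors, DOP-2 is found on the dopamine neurons themselves. *dop-2* (WBGene00001053, chromosome V, 9608556 to 9614940) had reads in all libraries, with values of 251, 169.5 and 182 in *adr-2 (-)* cells and 571, 272 and 232 in dsRBD1 mutant cells. The mutant values were the higher ones except that replicate 3 fell below *adr-2 (-)* replicate 1, and mutant replicate 1 stood far above the rest. The means were 201 ± 43.6 (SD, n = 3) and 358 ± 185 (SD, n = 3). The log2 fold change of 0.74 (SE 0.48, 95% interval -0.31 to 1.78, limma adjusted p = 0.741) was nearly the same without *adr-2 (-)* replicate 3 (0.68) and ranged from 0.34 to 0.99 over the omissions of single libraries. Among the 4 receptor genes with at least 10 reads in every library, *dop-2* had the largest fold change, yet it was within the spread between replicates.

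DOP-3, which couples to the inhibitory G protein GOA-1 and opposes DOP-1 in the control of locomotion, showed no steady direction in its transcript. The *dop-3* gene (WBGene00020506, chromosome X, 6564175 to 6569724) had values of 70.3, 244 and 0 in *adr-2 (-)* cells and 112, 59.6 and 92.3 in dsRBD1 mutant cells. Both the highest and the lowest of the 6 values came from *adr-2 (-)* cells. With all libraries the log2 fold change was 1.73 (SE 1.84, limma adjusted p = 0.777), and without *adr-2 (-)* replicate 3 it was -0.61 (SE 0.73). The pair *dop-1* and *dop-3* thus had fold changes of opposite sign once that library was left out, neither larger than its error.

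The serotonin receptor genes *ser-1*, *ser-4* and *ser-7* had reads in every library. SER-1 is a receptor coupled to Gq that is also used by muscle. The values of *ser-1* (WBGene00004776, chromosome X, 16579745 to 16587624) were 148, 152 and 218 in *adr-2 (-)* cells and 307, 247 and 111 in dsRBD1 mutant cells. Mutant cells gave both the highest values and the lowest one. This gave a log2 fold change of 0.26 (SE 0.57, limma adjusted p = 0.901), which ranged from -0.03 to 0.70 over the omissions of single libraries.

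SER-4 is an inhibitory serotonin receptor. *ser-4* (WBGene00004779, chromosome III, 1723198 to 1733101) had values of 339.7, 256 and 117 in *adr-2 (-)* cells and 151, 265 and 309 in dsRBD1 mutant cells. The genotypes covered the same range, with means of 238 ± 112 and 242 ± 81.8 (SD, n = 3 each). The estimate of 0.09 on the log2 scale (SE 0.55) had a 95% interval from -1.10 to 1.29 (limma adjusted p = 0.973). Its sign was not stable, with -0.35 without *adr-2 (-)* replicate 3, -0.12 without dsRBD1 replicate 3 and -0.007 without dsRBD1 replicate 2.

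SER-7, a receptor coupled to Gs that drives pharyngeal pumping, had the steadiest transcript of the 10. The values of *ser-7* (WBGene00004780, chromosome X, 2673572 to 2682384) were 153, 142 and 143 in *adr-2 (-)* cells and 142, 138 and 119 in dsRBD1 mutant cells. The highest mutant value, 142.2, was just under the lowest *adr-2 (-)* value, 142.4, so the genotypes did not overlap (p = 0.1 in an exact two-sided permutation test, and 3 libraries against 3 allow none smaller). This gap is less than 1 read, which was worth 0.930 in dsRBD1 replicate 1 and 0.734 in *adr-2 (-)* replicate 2. The difference was small, with a log2 fold change of -0.14 (SE 0.60, 95% interval -1.46 to 1.18, limma adjusted p = 0.959). Omitting single libraries gave -0.19 to -0.06. The limma error is wider than the scatter of these 6 values because it draws on the variance of all genes with similar values.

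Both tyramine receptors are coupled to inhibitory G proteins, and SER-2 acts in the escape response. *ser-2* (WBGene00004777, chromosome X, 15286533 to 15302963) had values of 192, 183 and 0 in *adr-2 (-)* cells and 283, 209 and 278 in dsRBD1 mutant cells. All mutant values exceeded all *adr-2 (-)* values (p = 0.1 by an exact two-sided permutation test), which leaving out a library cannot undo. The means were 125 ± 108 and 257 ± 41.1 (SD, n = 3 each). The log2 fold change of 2.96 (SE 1.67, 95% interval -0.69 to 6.61, limma adjusted p = 0.741) became 0.44 (SE 0.27, 95% interval -0.26 to 1.14) without that library. The difference did not pass the test in either fit.

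The second tyramine receptor, TYRA-2, works in sensory neurons such as the nociceptor ASH. *tyra-2* (WBGene00017157, chromosome X, 6996853 to 7005575) had values of 173, 80.7 and 6.51 in *adr-2 (-)* cells, the last of which came from 2 reads, and of 41.8, 125 and 141 in dsRBD1 mutant cells. The ranges of the genotypes overlapped almost entirely. An estimated log2 fold change of 0.95 (SE 1.31, limma adjusted p = 0.836) became -0.38 (SE 0.78) without *adr-2 (-)* replicate 3.

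The octopamine receptor OCTR-1 works in sensory neurons that restrain innate immunity. *octr-1* (WBGene00006411, chromosome X, 5609110 to 5611255) had the lowest mean of the 10. Its values were 75.7, 0 and 0 in *adr-2 (-)* cells and 62.3, 8.43 and 23.6 in dsRBD1 mutant cells. It was the only one of the 10 without a read in *adr-2 (-)* replicate 2 as well, a library of 14658470 reads in which 3 reads stand for a value of 2.20. Its highest value and its lowest ones came from the same genotype. Its log2 fold change was 2.53 (SE 2.24, limma adjusted p = 0.764), with a 95% interval from -2.36 to 7.42. It was 1.48 without *adr-2 (-)* replicate 2 or 3 and 4.61 without *adr-2 (-)* replicate 1.

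In *adr-2 (-)* replicate 3, the genes *dop-1*, *dop-3*, *dop-4*, *ser-2* and *octr-1* had no read, and *tyra-2* had 2. The mean values of the other 5 libraries would have stood for 10.5 reads of *octr-1*, 20.1 of *dop-4*, 35.6 of *dop-3*, 70.4 of *ser-2* and 88.3 of *dop-1* there. By contrast *ser-1* had 67 reads where its mean elsewhere stood for 59.3, and *ser-7* had 44 where it stood for 42.7. Between these, *dop-2* had 56 reads where its mean stood for 91.9, and *ser-4* had 36 where it stood for 81.2. Genes without reads were common in that library. Of the 6314 genes whose mean in the other 5 libraries lay in the range of the receptor genes, from 34.0 to 299, 29.2% had no read in it, against 5 of the 10 receptor genes. In the other libraries the same share, each set by the receptor range in the 5 libraries left, was 2.79% to 20.9%. The highest of these, 20.9%, was that of dsRBD1 replicate 1, in which all 10 receptor genes had reads. Of the receptor genes, 8 lie on chromosome X, which held 15.2% of the genes tested. All 5 receptor genes without a read are among these 8, whereas 37.2% of the X-linked genes in that range had no read in *adr-2 (-)* replicate 3. A value of 9.76, or 3 reads, was taken as the floor of detection in this library. This floor allows for counting error and not for copies made by PCR.

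**Figure D2:**
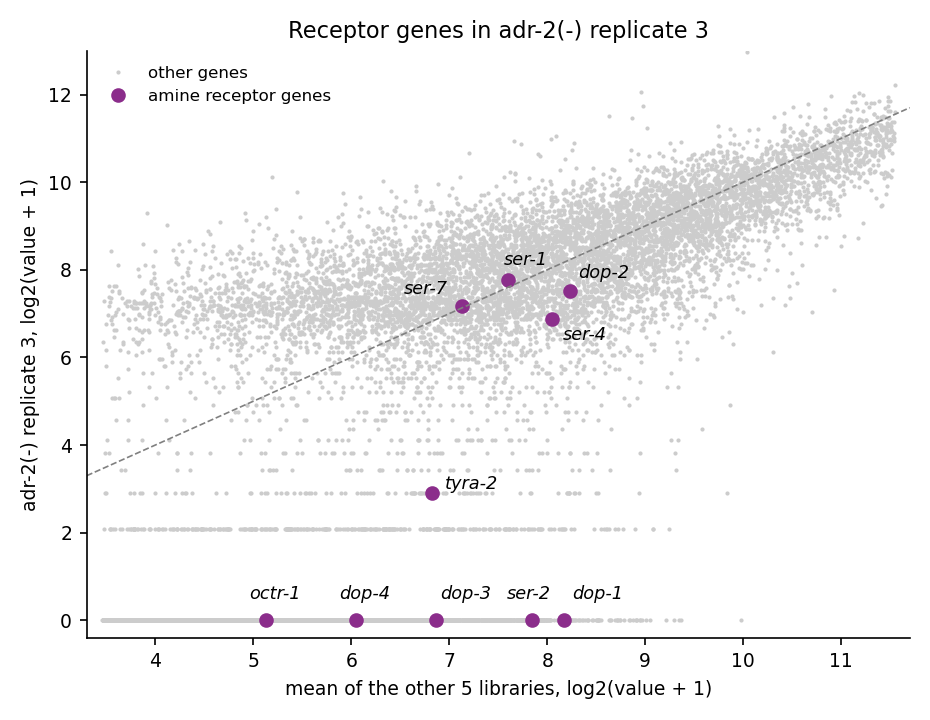
Value of each gene in *adr-2 (-)* replicate 3 (y axis) against its mean in the other 5 libraries (x axis), both as log2(value + 1), for genes with a mean of 10 to 3000. Purple points are the receptor genes, grey points all other genes and the dashed line marks equal values. The genes *dop-1*, *dop-3*, *dop-4*, *ser-2* and *octr-1* lie on the bottom line of genes without a read, and *ser-1* and *ser-7* lie at the dashed line.

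Summed over the 10 genes, the receptors had 151, 156 and 36.0 RPM, reads scaled to equal totals on genes, in *adr-2 (-)* replicates 1, 2 and 3 and 167, 163 and 133 in the dsRBD1 mutant replicates. Only *adr-2 (-)* replicate 3 stood apart. When reads on *rrn* genes were left out of the totals, it still had 80.9 RPM against 171 to 198 RPM in the other 5 libraries. The serotonin receptors made up 78.1% of the summed receptor values per kb of exon in this library and 36.6% to 45.6% in the others.

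With all 6 libraries, 9 of the 10 log2 fold changes were above 0, and their median was 1.34, where 54.5% of all genes tested were above 0 and their median was 0.09. Without *adr-2 (-)* replicate 3, 6 were above 0 and 4 below, and the median was 0.18 against -0.06 for all genes. None of the 10 had an unadjusted limma p under 0.05, where 6.36% of all genes did (3.46% higher and 2.9% lower in mutant cells), and without *adr-2 (-)* replicate 3 again none did, where 6.03% of all genes did. The smallest unadjusted p of the 10 was 0.103, for *ser-2*. The genotypes did not overlap for 2 of the 10, higher in mutant cells for *ser-2* and lower, by less than 1 read, for *ser-7*, where 13.7% of all genes did not overlap. On the recovered reads, the Wald test of DESeq2 called 2.29% of the genes with an adjusted p and none of the 10, and the quasi-likelihood test of edgeR called 0 genes, with 6.55% of genes and none of the 10 at an unadjusted p under 0.05. The DESeq2 fold changes ranged from -0.26 for *dop-3* to 1.03 for *ser-2* on the log2 scale. These are far below those on log2(value + 1) for genes with a library at 0, where the size of the fold change is set by the added 1.

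**Figure D3:**
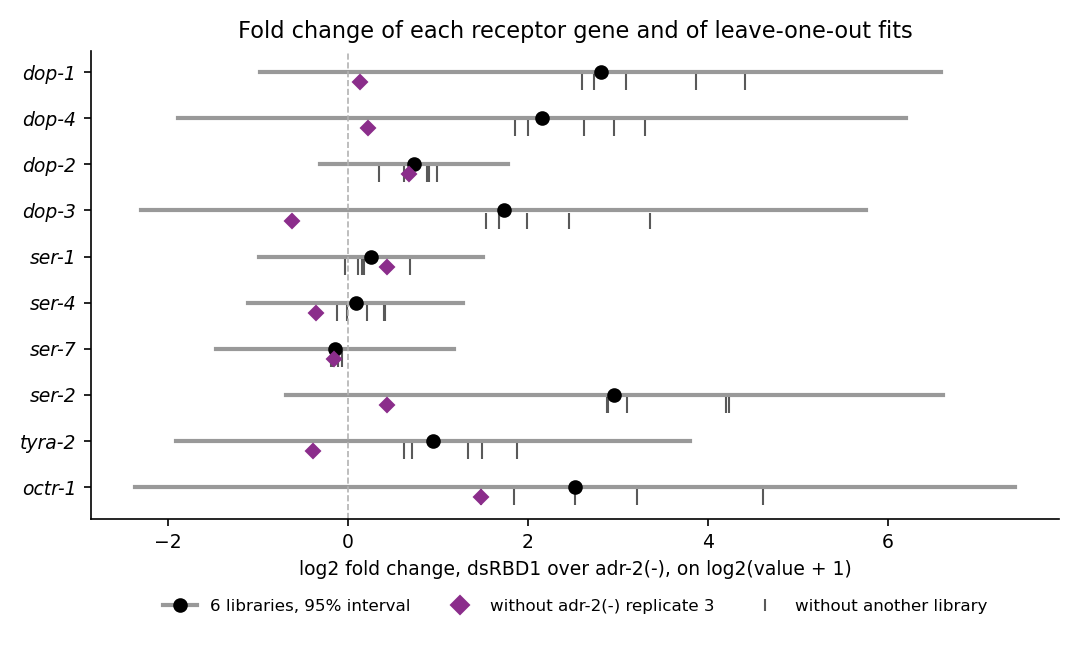
The x axis is the log2 fold change of each receptor gene, dsRBD1 mutant over *adr-2 (-)*, on log2(value + 1). Black points and grey bars are the limma estimate from 6 libraries and its 95% interval, purple diamonds the estimate without *adr-2 (-)* replicate 3 and ticks the estimates without each other library. Every grey bar crosses 0, and the diamonds of *dop-1*, *dop-4* and *ser-2* lie between 0.14 and 0.44, far left of their black points at 2.16 to 2.96.

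Levels of different genes were compared per kb of merged exons, over the 5 libraries other than *adr-2 (-)* replicate 3. The highest was that of *ser-4*, with 174 ± 47.4 normalized reads per kb (SD, n = 5). Then came *dop-1* with 119 ± 41.2 and *dop-2* with 110.0 ± 57.7. The genes *ser-2*, *ser-1* and *ser-7* followed with 96.3 ± 20.2, 87.2 ± 36.7 and 74.0 ± 6.70 per kb. The lower end held *tyra-2* with 58.3 ± 26.8, *dop-3* with 53.4 ± 34.4, *dop-4* with 37.3 ± 15.3 and *octr-1* with 23.3 ± 22.8. No gene was separated from its neighbour in this order, since the ranges of all 9 neighbouring pairs overlapped. Of the 45 pairs, 12 did not overlap. Of these 12, 5 set *octr-1* and 5 set *dop-4* below genes from the upper part, and the other 2 set *ser-4* above *ser-7* and *tyra-2*. *ser-4* was the first of the 10 in 4 of the 6 libraries, whereas *dop-2* led in dsRBD1 replicate 1 and *ser-1* in *adr-2 (-)* replicate 3.

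**Figure D4:**
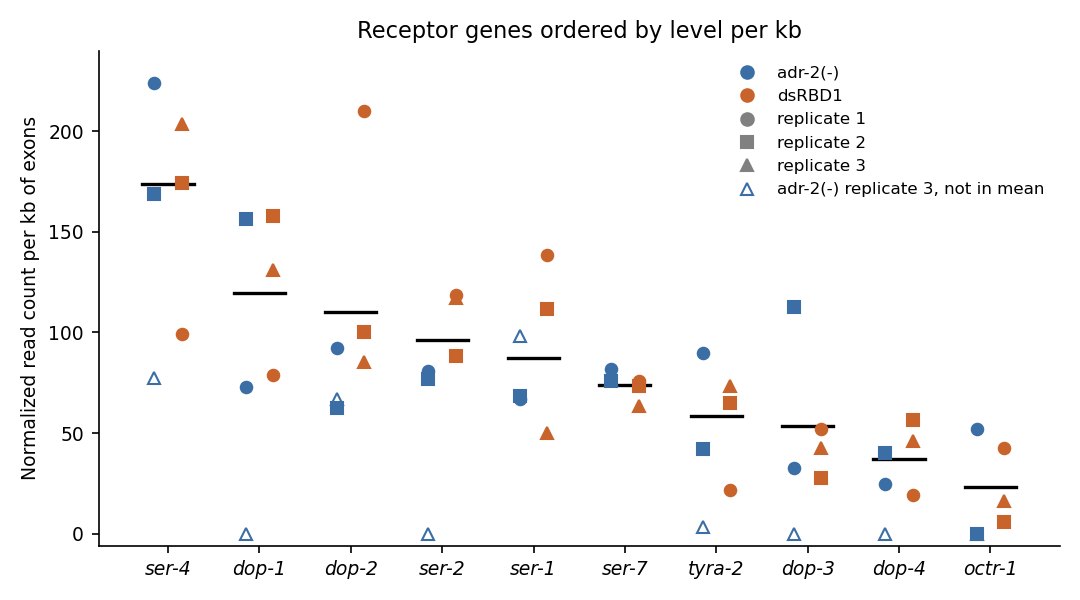
Normalized read count per kb of merged exons (y axis) of each receptor gene, ordered by the mean of 5 libraries (black bar). Blue marks *adr-2 (-)* and orange dsRBD1 mutant libraries, symbols mark the replicate, and open triangles are *adr-2 (-)* replicate 3, which is left out of the mean. The means go from 174 for *ser-4* to 23.3 for *octr-1*, and the points of neighbouring genes overlap.

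The spread between libraries was mostly far larger than counting error. Over the 5 libraries, counting error alone would give a coefficient of variation of 5.08% for *dop-1* and of 10.6% for *dop-4*. The measured one was 98.2% for *octr-1*, 64.3% for *dop-3*, 52.4% for *dop-2* and 27.2% for *ser-4*. The median over the 10 genes was 41.6%, against 46.6% for the 6314 genes in the same range. For *ser-7* it was 9.05%, close to its counting error of 7.50%, and only 0.443% of the genes in that range had a smaller one. The receptor genes thus varied about as much as other genes of their level, with *ser-7* at the steady end and *octr-1*, which varied more than 91.7% of the genes, at the other. Within dsRBD1 mutant cells alone, the highest library exceeded the lowest 7.39-fold for *octr-1*, 3.37-fold for *tyra-2* and 1.20-fold for *ser-7*.

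The likeness of 2 genes was measured as the root mean square difference of their centred log2(value + 1) over the 6 libraries, a small number of points in which a library at 0 weighs heavily. The closest pair among the receptors was *ser-1* and *ser-7*, at 0.46. Next were *dop-2* and *ser-1* at 0.47 and then *dop-1* and *ser-2*, both without reads in *adr-2 (-)* replicate 3, at 0.56. Many other genes were as close. Within the distance from *dop-1* to *ser-2* lay 109 of the genes tested, and the nearest of all were *ceeh-2* to *dop-1* (0.23), *supr-1* to *dop-2* (0.08) and *C25H3.9* to *ser-7* (0.05). The genes *octr-1* and *tyra-2* resembled no other receptor closely, with distances of 2.14 and 1.01 to the nearest one.

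By gene structure the receptors ranged from 2146 bases for *octr-1* to 16431 bases for *ser-2* on the WBcel235 assembly, with 1461 to 2717 bases of merged exons. Exons of *dop-3*, *ser-2*, *ser-7* and *octr-1* overlap a gene on the other strand, by 33 bases with *svh-2*, 150 bases with the noncoding RNA *C02D4.12*, 75 bases with the noncoding RNA *T14G11.5* and 24 bases with *F14D12.1*. The strand setting of the neural read counts is not given in the sources used here, so these 4 values may hold some reads of the partner gene.

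The remaining amine receptor genes, *dop-5*, *dop-6*, *ser-3*, *ser-5*, *ser-6* and *tyra-3*, were described in the same way. None of the 6 passed the test, none had an unadjusted limma p under 0.05, and their genotypes overlapped for all 6. In *adr-2 (-)* replicate 3, *dop-6*, *ser-3*, *ser-5* and *ser-6* had no read, so 9 of the 16 amine receptor genes were not found in it. For *ser-3*, an octopamine receptor, the values were 168, 279.6 and 0 in *adr-2 (-)* cells and 113, 350.3 and 288 in dsRBD1 mutant cells. This is the pattern of *dop-1*. The median log2 fold change of the 6 genes was 1.27, and it was -0.19 without that library.

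Amines also open ion channels, among them the serotonin-gated chloride channel MOD-1 and the tyramine-gated chloride channel LGC-55. None of 8 such genes passed the test in either direction, and their median log2 fold change was 0.18, or -0.01 without *adr-2 (-)* replicate 3. Only *lgc-55* of the 8 had genotypes that did not overlap, where 13.7% of all genes did not. Its values were 256, 274 and 176 in *adr-2 (-)* cells and 301, 347 and 291 in dsRBD1 mutant cells. Its log2 fold change was 0.43 (SE 0.42, limma adjusted p = 0.769), and 0.24 without *adr-2 (-)* replicate 3. Reads of *lgc-52* and *lgc-54* were absent from *adr-2 (-)* replicate 3, and those of the other 6 were present.

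On the side of the ligands, 11 of 12 genes of amine synthesis and transport passed the filter on low values, and none passed the test. The gene *cat-4*, which encodes the GTP cyclohydrolase that makes the cofactor for dopamine and serotonin synthesis, was the only one with an unadjusted p under 0.05 and no overlap of the genotypes. Its values were 701, 735 and 709 in *adr-2 (-)* cells and 436, 409 and 547 in dsRBD1 mutant cells. Every mutant library was lower, with a log2 fold change of -0.63 (SE 0.28, limma adjusted p = 0.741) and of -0.64 without *adr-2 (-)* replicate 3. Its unadjusted limma p of 0.0454 was no longer under 0.05 with TMM scaling, scaling by library totals, no filter, the replicate block or edgeR. Nor was it with at least 10 reads in every library, or without *adr-2 (-)* replicate 1, dsRBD1 replicate 1 or dsRBD1 replicate 2. The genotypes did not overlap for *mod-5*, the serotonin transporter, either. Thus 1 of the 11 was separated higher and 1 lower, against 6.8% and 6.92% of all genes. The *mod-5* values were 178, 233 and 0 in *adr-2 (-)* cells and 382, 245 and 240.5 in dsRBD1 mutant cells. Its log2 fold change of 3.03 (SE 1.68, limma adjusted p = 0.741) became 0.47 without *adr-2 (-)* replicate 3. The median of the 11 genes was -0.32. The genes *tph-1* for serotonin synthesis, *cat-2* for dopamine synthesis and *mod-5* for serotonin uptake had no read in *adr-2 (-)* replicate 3, while *cat-1*, the vesicular amine transporter, had 137 reads and *bas-1*, the amino acid decarboxylase, had 128.

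Downstream of the receptors, 20 genes of G protein signalling were all tested, and none passed the test in either direction. All 20 had reads in every library, and 7 were separated higher and 1 lower in mutant cells, against 6.8% and 6.92% of all genes. Of those with an unadjusted p under 0.05 and no overlap, *eat-16* and *grk-1* are described. *eat-16*, which encodes an RGS protein that turns off Gq, had values of 1297, 1220.5 and 1207 in *adr-2 (-)* cells and 1968, 1838 and 2137 in dsRBD1 mutant cells. The mutant libraries were all higher, with a log2 fold change of 0.67 (SE 0.21, limma unadjusted p = 0.00746, adjusted p = 0.703), and of 0.65 without *adr-2 (-)* replicate 3. For *grk-1*, a G protein-coupled receptor kinase, values were 657, 650 and 543 in *adr-2 (-)* cells and 1332, 752 and 900 in dsRBD1 mutant cells. Its log2 fold change was 0.65 (SE 0.29, limma unadjusted p = 0.0431, adjusted p = 0.741), and 0.56 without *adr-2 (-)* replicate 3. Only 1 gene of the list had an unadjusted p under 0.05 with scaling by library totals, with or without *rrn* genes, or with the replicate block. The same held without *adr-2 (-)* replicate 1, dsRBD1 replicate 1 or dsRBD1 replicate 3. The 3 main alpha subunits gave 0.14 for *goa-1* (Go), 0.31 for *egl-30* (Gq) and 0.29 for *gsa-1* (Gs), of which *gsa-1* alone was separated between the genotypes. The median of the list was 0.31, and 0.33 without *adr-2 (-)* replicate 3.

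**Figure D5:**
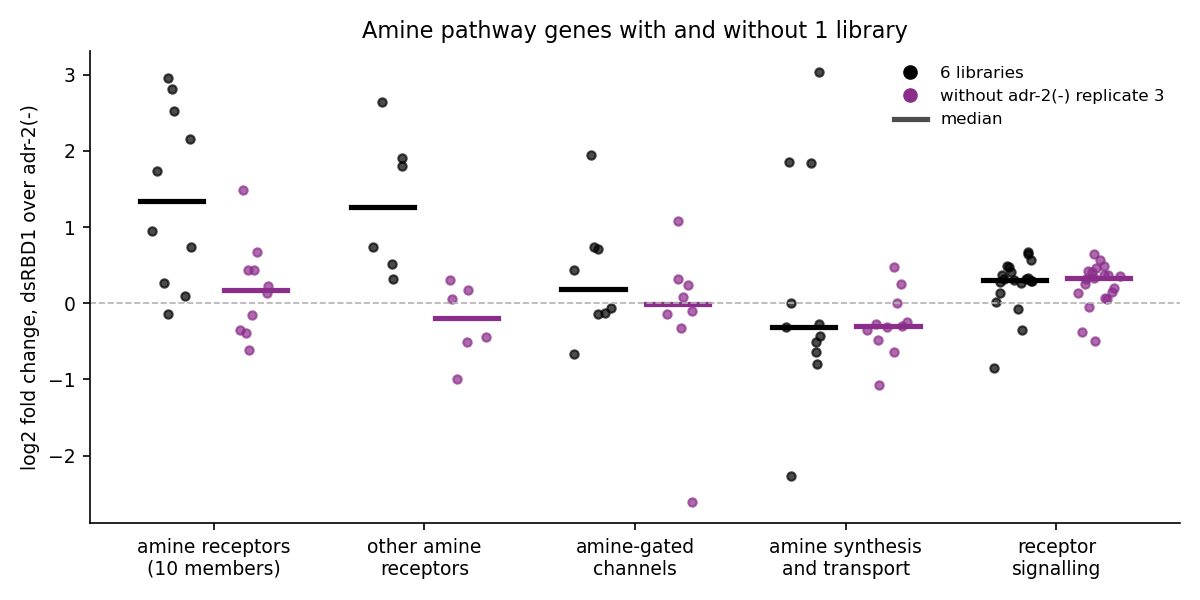
The y axis is the log2 fold change, dsRBD1 mutant over *adr-2 (-)*, of each tested gene of 5 lists, from 6 libraries (black) and without *adr-2 (-)* replicate 3 (purple), with bars at the medians. The medians of the 10 receptor genes and of the 6 other amine receptors go from 1.34 and 1.27 to 0.18 and -0.19 when that library is left out, whereas that of the signalling genes stays at 0.31 to 0.33.

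Marker genes of other cells also differed between the libraries. Of 18 germline and early embryo genes, 11 were separated lower in dsRBD1 mutant cells, where 6.92% of all genes were. Only *glp-1* had a log2 fold change above 0, at 1.07. Summed values of the 18 were 2746 to 10649 in *adr-2 (-)* cells against 1715 to 2256 in mutant cells. *meg-2* was at 0 in 5 libraries and *pie-1* in 1. The highest sum was that of *adr-2 (-)* replicate 3. The 8 pharyngeal markers had summed values of 66729 to 83084 against 87095 to 114442, none at 0. Of these 8, *myo-1* and *myo-2*, which had the largest values, were separated higher, and 6 overlapped. All 8 had log2 fold changes above 0, where 54.5% of all genes did. The 8 glial markers had summed values of 1874 to 2037 against 2556 to 3430.2, with *delm-1* at 0 in 4 libraries and *ptr-10* and *hlh-17* in 3 and 2. Of the 6 glial genes tested, *fig-1* and *lit-1* were separated higher, where 6.8% of all genes were. The other 4 overlapped, and *hlh-17* and *delm-2* had fold changes below 0. *lit-1* had the largest glial values, with means of 1146 and 1717. The sums of pan-neuronal, body wall muscle, epidermal and intestinal markers overlapped between the genotypes. Single genes of these lists were separated all the same, against 6.8% higher and 6.92% lower over all genes. These were *dpy-4* and *dpy-5* (lower) of 8 epidermal genes tested, *pho-1* (lower) of 10 intestinal and *tnt-3* (higher) of 12 muscle genes. Of the epidermal markers, *bli-1* was at 0 in 5 libraries and *dpy-7*, *rol-6* and *col-12* in 3 each. The part of these differences in the receptor values was not tested.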

How the data were processed

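Neural cells of L1 animals were profiled by poly(A) RNA-seq in 3 libraries per genotype. The authors aligned single-end reads of 75 bases to WS275 with STAR 2.7.8a, keeping unique alignments, and counted reads per gene with featureCounts. The signal the authors deposited is the read count after division by a library's size factor from DESeq2. The deposited log2 fold changes and p-values are the authors' own DESeq2 comparison and were not used.

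Read counts were recovered, since 100% of the values were whole multiples of one read within 0.01 read (within 1e-05 of the value for large counts). Genes were tested with limma 3.58.1 (R 4.3.3) on log2(value + 1), with a mean-variance trend, for a mean value of at least 10. The recovered reads were also tested with edgeR 4.0.16 and DESeq2 1.42.0. Fits were tested on simulated data. Other alternatives were a pseudocount of 0.5, no filter, at least 10 reads in every library, TMM or total scaling with and without *rrn* genes, a replicate block, and leaving out each library. Exact permutation tests were two-sided, and p-values measure the spread between these 6 libraries.

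Members and gene lists were chosen with earlier results of these data known. RPM were computed from the recovered reads. Named were all members, and list genes without overlap at an unadjusted p under 0.05, at most 5 a list, besides the nearest patterns. One signalling gene that met this rule is not reported here. *lgc-55*, *ser-3*, *tph-1*, *cat-2*, *mod-5*, *cat-1*, *bas-1* and the alpha subunits were named after their values were seen. Coordinates are from the Ensembl WBcel235 annotation, the assembly of WS275, in which 19784 of 19793 gene identifiers were found. Sequences were not used here.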

Additional observations from a re-analysis of the deposited data

How the results depend on the processing

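No receptor gene passed the test under any of the 15 alternatives, and the lowest adjusted p of the 10 genes was 0.448. The direction held in 135 of 144 fits and under every alternative for 6 of the genes. It reversed for *dop-3* with edgeR (-0.29) and DESeq2 (-0.26), and for *ser-4* with totals without *rrn* genes (-0.049). When each library was left out, the log2 fold change of *dop-3* lay between -0.61 and 3.35, that of *ser-1* between -0.035 and 0.70, that of *ser-4* between -0.35 and 0.41 and that of *tyra-2* between -0.38 and 1.88, the lowest of *dop-3*, *ser-4* and *tyra-2* being without *adr-2 (-)* replicate 3 and that of *ser-1* without dsRBD1 replicate 1. Leaving out *adr-2 (-)* replicate 2 gave *dop-1* an unadjusted limma p of 0.0395. In that fit 874 of the 13705 genes were higher and 632 lower at an unadjusted p under 0.05. With at least 10 reads in every library, only *dop-2*, *ser-1*, *ser-4* and *ser-7* could be tested.

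Over all genes, limma called 0 of 13705, with 3 called without the filter on low values, 317 with DESeq2 and 0 to 11 when each library was left out (11 without *adr-2 (-)* replicate 2). The cause was not tested. With the replicate number as a block limma called 21 genes and none of the 10, with *dop-1* and *ser-2* at unadjusted p-values of 0.0346 and 0.0332. With this block 638 of the 13705 genes were higher and 318 lower at an unadjusted p under 0.05. Libraries with the same number did not deviate together (correlations of -0.09, 0.04 and -0.06 across genes). The sources used here do not say whether they were prepared together, and 3 libraries per genotype are too few to show it. Scaling by library totals moved the median of all genes from 0.09 to 0.21, and scaling by totals without *rrn* genes moved it to -0.05. The mean summed receptor level, 114 RPM in *adr-2 (-)* cells, was 93.5 to 153 when each library was left out.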
